A study of Mus musculus with 29 samples.

Results

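The mitochondrial genome of the mouse encodes 37 genes, and all of them are rows of the deposited table of 48023 genes. They were chosen by 1 rule, that the mapped symbol starts with mt-, and comprise 13 mRNAs, 2 rRNAs and 22 tRNAs. Reads under Gm28438, a nuclear copy of mt-Nd3, were added to mt-Nd3 for the reason given below. RNA was sequenced from tibialis anterior (TA) muscle of 29 male mice, 1 library per mouse, in 8 groups. The p110α line had 4 fed controls (mice 1–4), 4 fed M-p110αKO (5–8), 4 fasted controls (9–12) and 3 fasted M-p110αKO (13–15). The p110β line had 3 controls (16–18) and 4 M-p110βKO (19–22) that were fed, and 3 controls (23–25) and 4 M-p110βKO (26–29) that were fasted. Knockouts carried a Cre transgene under the HSA promoter (human skeletal muscle actin), which acts in muscle fibres, with floxed exon 1 of Pik3ca (p110α) or exon 2 of Pik3cb (p110β). The controls are labelled WT. Mice were 2 to 3 months old by the labels, and fasting lasted 24 h. The lines also differ in genetic background, the p110β line being less purely C57BL/6 by the study's supplement, so a difference between lines cannot be told apart from background.

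The mitochondrial genome is a circle of DNA inside the organelle, transcribed from both strands by the polymerase Polrmt with the factors Tfam and Tfb2m into long precursors. Most genes are separated by tRNAs, and cutting out the tRNAs releases the mRNAs and rRNAs, which the Lrpprc and Slirp proteins and polyadenylation help to keep stable. The mRNAs encode core subunits of respiratory complexes I, III and IV and of ATP synthase, the rRNAs form the mitochondrial ribosome, and the tRNAs decode its messages. Muscle, which depends on ATP, holds many copies of this genome per cell.

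Assigned reads per library ranged from 5351935 to 11653239. The libraries read as fast muscle, with Myh4, the myosin of type IIB fibres, at 44962–83437 CPM and Myh7, the slow myosin, at 0.285–34.6 CPM. CPM are counts relative to the total of the library, scaled throughout with TMM factors over all 29 libraries. Counts over all exons do not check a deletion of 1 exon, and Pik3ca in M-p110αKO differed from controls by 0.10 ± 0.13 (SE) on the log2 scale when fed and −0.09 ± 0.14 when fasted. Pik3cb in M-p110βKO differed by −0.00427 ± 0.13 and 0.04 ± 0.14. In bulk muscle, fewer cells of a type and less RNA per cell cannot be told apart.

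A stretch of chromosome 1 carries near-identical copies of 7 of the mRNAs, and its effect on the counts has to be known before any value is read. The clearest pair is mt-Nd3 (chrM:9459-9806, plus strand, GRCm38), which encodes a small membrane subunit of complex I, and Gm28438 (chr1:24612775-24613119, minus strand). The GENCODE M21 sequences of the pair are 348 and 345 bases long and differ at 1 of 345 aligned bases, T3C, counted from 1 at the 5′ end of mt-Nd3, where mt-Nd3 has the first letter of the token. The opening 90 bases of each are shown with that base in capitals, followed by the tRNAs on either side of mt-Nd3, whose reads went with the assignment, and by mt-Ta, the tRNA with the most reads.
mt-Nd3, chrM:9459-9548, plus strand: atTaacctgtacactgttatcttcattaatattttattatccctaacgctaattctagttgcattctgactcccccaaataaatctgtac
Gm28438, chr1:24613030-24613119, minus strand: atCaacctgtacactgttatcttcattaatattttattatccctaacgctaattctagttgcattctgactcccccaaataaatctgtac
mt-Tg, chrM:9391-9458, plus strand: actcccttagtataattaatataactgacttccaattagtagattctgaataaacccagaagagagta
mt-Tr, chrM:9808-9875, plus strand: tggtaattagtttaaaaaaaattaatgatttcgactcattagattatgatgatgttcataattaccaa
mt-Ta, chrM:5018-5086, minus strand: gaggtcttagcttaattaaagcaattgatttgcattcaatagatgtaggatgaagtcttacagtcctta

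In all 15 libraries of the p110α line the reads lay under mt-Nd3, with 13812–46977 reads there and 33–194 under Gm28438. In the p110β line 11 of 14 libraries had the reverse, with 157–492 reads under mt-Nd3 and 13210–27630 under Gm28438, which held 97.57–99.01% of the sum. The other 3 libraries of that line, fed M-p110βKO mice 19 and 21 and fasted M-p110βKO mouse 27, resembled the p110α line, with 22781–25078 reads under mt-Nd3 and 65–89 under Gm28438. The sum of both, 13539 to 47101 reads over all 29 libraries, is therefore used as mt-Nd3 below. The neighbouring glycine tRNA mt-Tg, whose end adjoins the start of mt-Nd3, split the same way, with 9–89 reads in the p110α line, 0 or 1 in the 11 libraries and 20–41 in the other 3. The arginine tRNA mt-Tr just downstream had 13–51, 0–5 and 18–41 reads. The 3 libraries are all knockouts, so mt-Tg and mt-Tr are not read for genotype or fasting in the p110β line. Both stay among the members tested in that line, and so in its counts and medians.

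**Figure D1:**
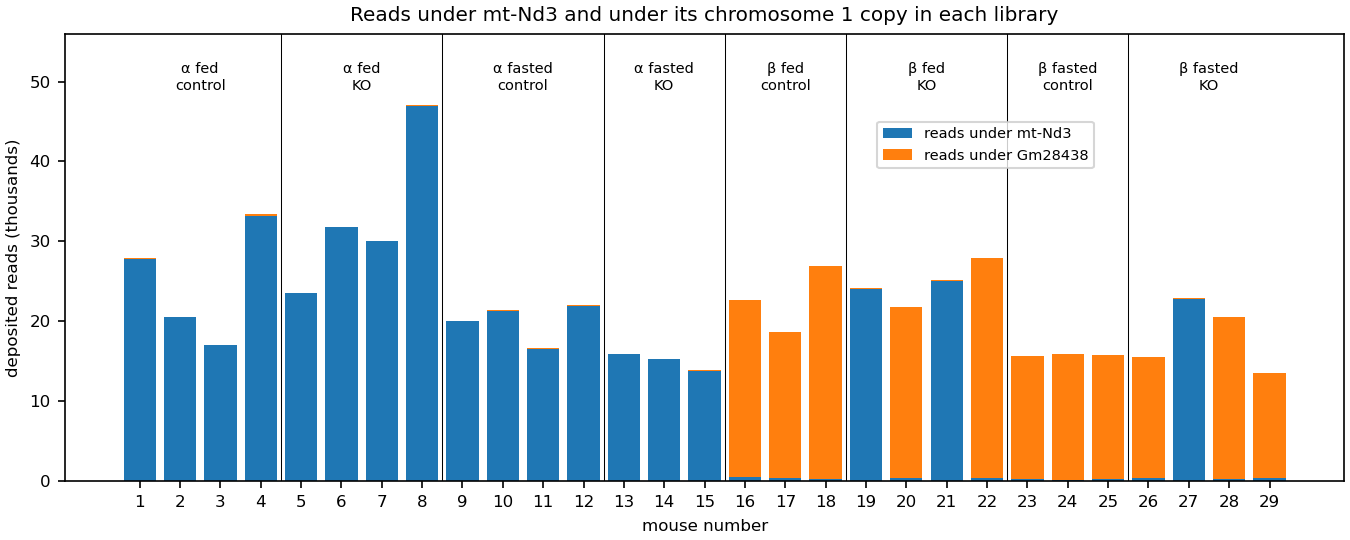
Deposited reads under mt-Nd3 and under its chromosome 1 copy Gm28438, stacked, in each of the 29 libraries by mouse number, with vertical lines between the 8 groups. In 11 of the 14 p110β-line libraries nearly the whole bar belongs to Gm28438, while mice 19, 21 and 27 look like the p110α line.

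Per kilobase of transcript the mRNA of Nd1, a membrane subunit of complex I, was the most abundant member, at 26573 ± 6449 CPM per kb (SD, n = 29 libraries). Co1, the catalytic subunit of complex IV, followed at 12546 ± 1995, and Nd2 of complex I stood at 11336 ± 1944, within the spread of Co1. Cytb, the mitochondrial subunit of complex III, had 9387 ± 1685, Nd3 7871 ± 1798, Nd5 6867 ± 1192, Nd4 5888 ± 1293 and Nd6 4443 ± 771. From Cytb to Nd4 each differed from the next by less than its own SD. The rRNAs lay lower, at 3554 ± 1135 for mt-Rnr2 of the large ribosomal subunit and 2156 ± 903 for mt-Rnr1 of the small one. The libraries were made with an mRNA kit, so rRNA and tRNA reads are not cellular abundances.

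**Figure D2:**
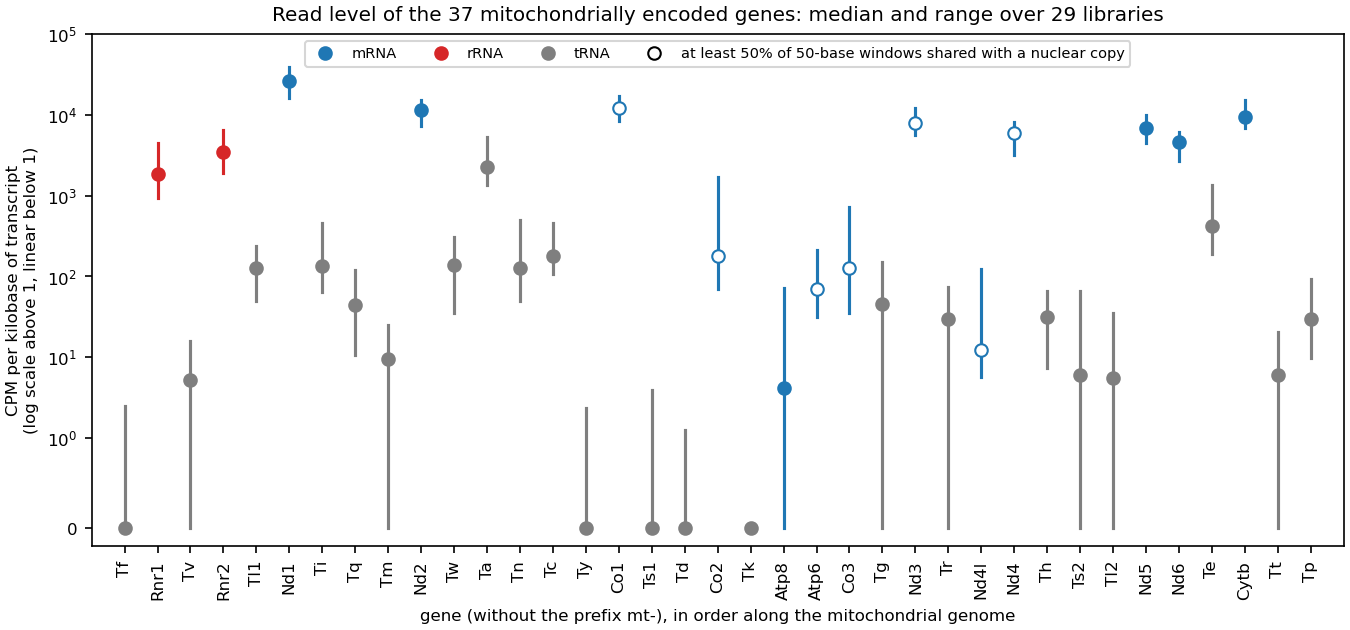
CPM per kilobase of transcript (log scale above 1, linear below) of the 37 genes in genome order, with the median (points) and range (lines) over 29 libraries, and open points for members that share at least 50% of their 50-base windows with a nuclear copy. Co2, Atp8, Atp6, Co3 and Nd4l lie far below the other mRNAs.

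The 5 mRNAs of Co2 and Co3 of complex IV, Atp6 and Atp8 of ATP synthase and Nd4l of complex I had few reads for genes that share a precursor with Co1. Co2 had 285–8660 reads per library, Co3 220–4591, Atp6 171–1655, Nd4l 14–415 and Atp8 0–120, while Co1 had 93709–299008. Together the 5 held 0.127–1.24% of mitochondrial reads. All but Atp8 have a copy on chromosome 1 that is identical over all aligned bases, Co2 with Gm28661, Atp6 with Gm10925, Co3 with Gm28437 and Nd4l with Gm10222. The share of 50-base windows found letter for letter in a nuclear transcript was 100% for Co2, 99.5% for Atp6, 99.9% for Co3 and 98.8% for Nd4l. It was 98.0% for Nd3, 62.2% for Nd4 and 51.1% for Co1, 8.19% for Nd2 and 7.61% for Nd5, and 0 for Nd1, Nd6, Cytb, the rRNAs and Atp8. How reads that fit more than 1 place were treated is not stated in those sources that were used. The levels of Co2, Co3, Atp6, Nd4l and Nd3 are therefore uncertain, and those of Nd4 and Co1 in part. For Nd3 the sum with Gm28438 cannot show what became of reads that fit both places. Only annotated transcripts were searched, so a share of 0 does not exclude a copy elsewhere in the nuclear genome. On chromosome 1 the copies of Co2 and Atp6 lie 233 bases apart. That stretch was not compared with mt-Tk and Atp8, which lie between Co2 and Atp6 except for the end of Atp8. The levels of mt-Tk and Atp8 are therefore uncertain too.

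The 22 tRNAs took 0.0148–0.0546% of all counts and 0.184–0.490% of mitochondrial reads. The alanine tRNA mt-Ta led with 634–2682 reads per library, followed by the glutamate tRNA mt-Te (100–1076), the cysteine tRNA mt-Tc (46–319), the isoleucine tRNA mt-Ti (29–221) and the asparagine tRNA mt-Tn (25–224). At the other end the lysine tRNA mt-Tk had 0 reads in all 29 libraries, which allows up to 3 reads over all of them together, and the aspartate and tyrosine tRNAs mt-Td and mt-Ty had 1 read in 1 library each. Reads were enough for a test for 29 members in the p110α line, that is the 13 mRNAs, 2 rRNAs and 14 tRNAs, and for 27 in the p110β line, without mt-Ts2 and mt-Tl2. The strand setting of the count is likewise not stated, so mt-Nd6, mt-Ta, mt-Te, mt-Tc, mt-Tn, mt-Tp and mt-Tq, which lie on the light strand, cannot be told apart from antisense reads of the precursor.

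Over all 29 libraries the mitochondrially encoded genes held 10.1 ± 1.45% (SD) of counts, from 6.99% to 12.4%. The mRNAs took 92.2 ± 2.03% of these reads and the rRNAs 7.50 ± 1.97%. The share of all counts was 9.63 ± 1.34% in fed p110α-line controls, and fed M-p110αKO had 10.7 ± 1.17% (SD, n = 4 each). When fasted it was 9.55 ± 1.04% in controls (n = 4) and 7.98 ± 1.01% in M-p110αKO (n = 3), where mice 13–15 had 6.99, 7.95 and 9.00%. In the p110β line it was 11.3 ± 0.558% in fed controls (n = 3) and 10.7 ± 0.678% in fed M-p110βKO (n = 4). Fasted controls had 8.31, 7.93 and 10.5% and fasted M-p110βKO 12.3, 10.7, 12.4 and 11.1%, so that all 4 knockouts lay above all 3 controls. The share is given as a description, without a test.

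Fed M-p110αKO showed no called difference in any mitochondrially encoded gene. A gene is called here when edgeR's adjusted p over all genes tested is under 0.05, and 0 of 29 members were called, against 0.611% of all 12432 genes (0.193% higher, 0.418% lower). Before adjustment 2 members were higher and 1 lower at p under 0.05, against 643 and 812 of all 12432 genes. DESeq2 also called 0 members. Nd1 came nearest to a clean split, with 18604, 20046, 21055 and 20633 CPM in fed controls and 22502, 26286, 21459 and 27058 in fed M-p110αKO. The groups did not overlap, yet the log2 fold change of 0.27 ± 0.14 (SE, adjusted p = 0.456 by edgeR) missed the threshold. mt-Rnr1 differed by 0.29, mt-Rnr2 by 0.28 and Nd4 by 0.23, none called.

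Fasted M-p110αKO had lower mitochondrial rRNA, several lower tRNAs and a lower mRNA of Nd4 than fasted controls. Of 29 members tested 10 were lower and 0 higher, comprising both rRNAs, 6 of 14 tRNAs and 2 of 13 mRNAs. Over all genes tested 6.52% were called, 3.02% higher and 3.51% lower. The median log2 fold change was −1.17 for the rRNAs, −1.24 for the tested tRNAs and −0.05 for the mRNAs, against 0.00326 for all genes. The groups did not overlap for 15 members that were lower and for 1, Co3, that was higher. How many of all genes separated in this way was not counted, so these numbers have no background to be read against.

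mt-Rnr1, the RNA of the small ribosomal subunit, read 2643, 2432, 2802 and 4299 CPM in fasted controls and 1249, 974 and 1339 in fasted M-p110αKO. All 3 knockouts lay below all 4 controls, the highest of which was mouse 12, and the log2 fold change was −1.35 ± 0.25 (SE, adjusted p = 0.00547 by edgeR). mt-Rnr2, of the large subunit, read 6035, 5462, 5816 and 7536 CPM in controls and 3116, 3015 and 3281 in knockouts, a log2 fold change of −0.98 ± 0.18 (SE, adjusted p = 0.00594 by edgeR). The 3 knockout libraries were closely spaced and again below every control.

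The alanine tRNA mt-Ta read 219, 193, 245 and 248 CPM in fasted controls and 94.3, 100.4 and 97.5 in fasted M-p110αKO, without overlap. Its log2 fold change was −1.21 ± 0.23 (SE, adjusted p = 0.00594 by edgeR). The cysteine tRNA mt-Tc fell from 16.1 ± 0.494 CPM (n = 4) to 7.60 ± 0.621 (n = 3). On the log2 scale that is −1.07, with an edgeR adjusted p of 0.0488. This call was lost without any 1 of the 7 libraries. The isoleucine, tryptophan and glycine tRNAs mt-Ti, mt-Tw and mt-Tg changed by −1.61, −1.32 and −1.57, with edgeR adjusted p of 0.0193, 0.0248 and 0.0269. The call of mt-Ti was lost without mouse 12, 13, 14 or 15, and those of mt-Tw and mt-Tg without mouse 9, 11, 13 or 14. A serine tRNA, mt-Ts2, was also called, on 1, 1 and 0 reads in the knockouts and 13, 5, 6 and 25 in the controls. Its fitted fold change rests on these few reads and is not given, and the call held only without mouse 10. The other 8 tested tRNAs also had log2 fold changes below 0 but were not called.

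Among the mRNAs Nd4, a membrane subunit of complex I, read 8944, 8616, 11337 and 10095 CPM in fasted controls and 4379, 5632 and 5489 in fasted M-p110αKO. The groups did not overlap, with a log2 fold change of −0.91 ± 0.15 (SE, adjusted p = 0.00223 by edgeR). Nd6, the complex I subunit encoded on the light strand, read 2145, 2030.3, 2325 and 2275 CPM in controls against 1381, 1822 and 1683 in knockouts, a log2 fold change of −0.42 ± 0.12 (SE, adjusted p = 0.0471 by edgeR), and its call was lost without any 1 of the 7 libraries. The other complex I mRNAs were not called, with −0.49 (adjusted p = 0.0762) for Nd5, −0.40 (adjusted p = 0.141) for Nd2, −0.05 (adjusted p = 0.853) for Nd3 and 0.22 (adjusted p = 0.417) for Nd1 by edgeR. Cytb of complex III gave −0.19 (adjusted p = 0.577) and Co1 of complex IV −0.34 (adjusted p = 0.252). Co2, Co3, Atp6, Atp8 and Nd4l had values between 0.37 and 2.25, all above 0 and none called. Nd4 and the shared copy Gm28439 were summed in an alternative that left the count of called members at 10. Gm28439 held 69–1757 reads per library and Nd4 35325–123787, so this sum could change little. It cannot show what became of reads that fit both places.

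Nuclear snoRNAs are small RNAs of the nucleolus without a poly(A) tail, which an mRNA kit should not select. Their summed level was 237–557 CPM in the 4 fasted p110α-line controls, and 57.1, 118 and 259 in the 3 fasted M-p110αKO, so that mouse 15 overlapped the controls. In the p110β line they read 101–224 in fed M-p110βKO and 277–579 in fasted M-p110βKO. Their part in the mitochondrial results was not tested. Of the 1507 snoRNA genes summed, 1220 had 0 reads in all libraries. No marker list of fast or slow fibres, fat, macrophages, endothelium, fibroblasts, blood or nerve had a called gene between fasted M-p110αKO and fasted controls.

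**Figure D3:**
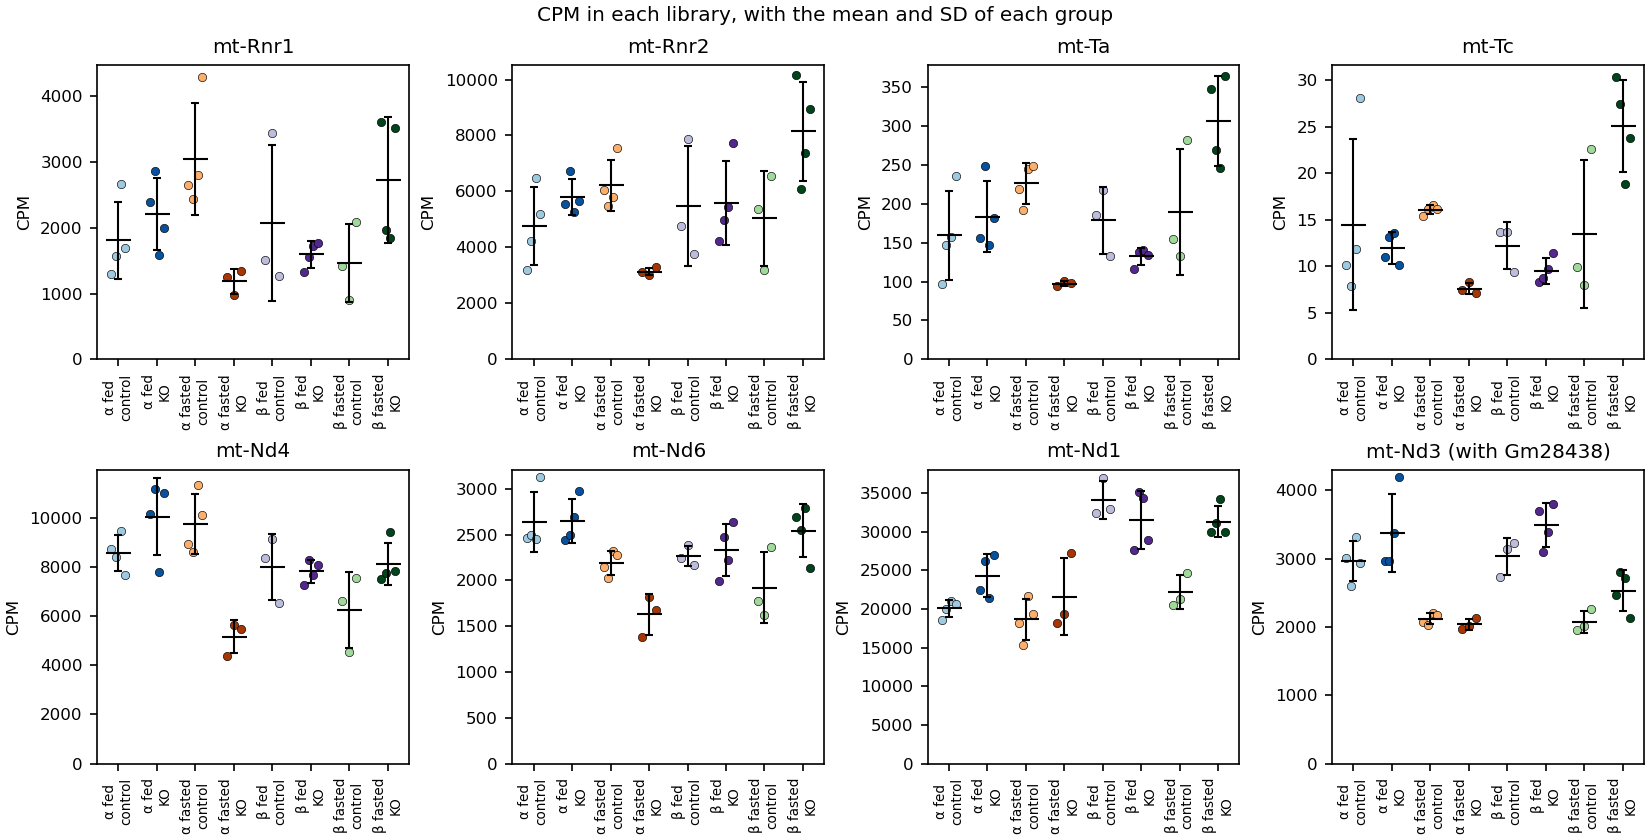
CPM of 8 members in each library (points) by group, with the group mean and SD (bars), α and β naming the p110α and p110β lines. Fasted M-p110αKO (brown, rightmost of the p110α line) is low for mt-Rnr1, mt-Rnr2, mt-Ta, mt-Tc, Nd4 and Nd6, and fasted M-p110βKO (last column) is high for mt-Ta and mt-Tc. Nd1 is higher in both fed groups of the p110β line and in fasted M-p110βKO than in the other groups. Nd3 is lower in fasted than in fed groups.

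Fasting of p110α-line controls called 1 member higher and 2 lower of 29, against 30.1% of all genes called (15.4% higher, 14.7% lower). Both count and balance turned on mouse 4, a fed control. Without it 7 members were called, 6 higher (mt-Rnr1, mt-Ti, mt-Ta, mt-Tn, mt-Tc and mt-Te) and 1 lower (Nd3), and without mouse 3, 3 were higher and 2 lower. Over all genes 3284 of 12306 were called without mouse 4 and 3708 of 12466 without mouse 3. mt-Rnr1 rose from 1806 ± 592 to 3044 ± 850.3 CPM (SD, n = 4 each). Its log2 fold change was 0.75 ± 0.22 (SE, adjusted p = 0.0168 by edgeR), but the groups overlapped and the call was lost without mouse 1, 2 or 12. mt-Rnr2 gave 0.37 (adjusted p = 0.0954) by edgeR and mt-Ta 0.50 (adjusted p = 0.069). Nd3 fell, as described below. Nd4l was called lower on 34, 14, 16 and 415 reads in fed and 20, 23, 23 and 20 in fasted controls, and without mouse 4, which had 415 of these reads, its log2 fold change was −0.32 and it was not called. It was also lost without mouse 9, 10, 11 or 12.

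Fasting of M-p110αKO gave more calls, 12 of 29 members lower and 1 higher, against 21.5% of all genes called (11.6% higher, 9.91% lower). Both rRNAs, 5 of 14 tRNAs and 5 of 13 mRNAs were lower. This comparison and that with fasted controls share the 3 fasted knockouts. mt-Rnr1 read 2393, 2859.6, 1579 and 1995 CPM in fed M-p110αKO, above all 3 fasted ones, a log2 fold change of −0.89 ± 0.24 (SE, adjusted p = 0.0153 by edgeR). mt-Rnr2 changed by −0.88 ± 0.18 (SE, adjusted p = 0.0025 by edgeR) and mt-Ta by −0.91 ± 0.22 (SE, adjusted p = 0.00788 by edgeR). Of the other tRNAs mt-Tl1 (leucine), mt-Tw and mt-Tg changed by −0.99, −1.62 and −1.88, and mt-Tl2, the second leucine tRNA, was called on 14, 15, 7 and 12 reads fed and 1, 3 and 1 fasted. Calls were lost without mouse 6 or 14 for mt-Rnr1, without mouse 6, 7, 13 or 14 for mt-Tl1 and without mouse 5, 6, 13, 14 or 15 for mt-Tl2.

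The 5 mRNAs called lower in fasted M-p110αKO were Nd2, Nd3, Nd4, Nd5 and Nd6, which encode subunits of complex I, as do 7 of the 13 mRNAs. Nd4 read 10167, 11169, 7783 and 11019 CPM in fed M-p110αKO and fell by 0.95 on the log2 scale, without overlap. Nd6 changed by −0.70 ± 0.12 (SE, adjusted p = 0.000729 by edgeR), Nd3 by −0.73 ± 0.12 (SE, adjusted p = 0.000597 by edgeR), Nd2 by −0.60 ± 0.16 (SE, adjusted p = 0.0123 by edgeR) and Nd5 by −0.47 ± 0.16 (SE, adjusted p = 0.0447 by edgeR). The call of Nd2 was lost without mouse 13, and that of Nd5 without mouse 7, 8, 13 or 14. Co1 of complex IV and Cytb of complex III had values near that of Nd5, at −0.45 (adjusted p = 0.0733) and −0.41 (adjusted p = 0.118) by edgeR, and were not called, nor was Nd1 at −0.17. No difference between complexes was tested. The rise of Atp8 rests on mouse 13, with 120 reads against 8 and 5 in the other fasted knockouts and 2–9 in fed ones, and DESeq2 and limma-voom did not call it. Without mouse 13 its log2 fold change was 0.68, and without mouse 13 or 6 it was not called.

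The interaction tests directly whether the knockout changed the response to fasting. In the p110α line 5 of 29 members were called, all lower, against 0.483% of all genes (0.209% higher, 0.273% lower). They were mt-Rnr1 at −1.64 ± 0.33 (SE, adjusted p = 0.0379 by edgeR), mt-Rnr2 at −1.26 ± 0.25 (SE, adjusted p = 0.0359 by edgeR), mt-Tw at −2.13 ± 0.43 (SE, adjusted p = 0.0379 by edgeR), mt-Ta at −1.41 ± 0.30 (SE, adjusted p = 0.0435 by edgeR) and Nd4 at −1.14 ± 0.20 (SE, adjusted p = 0.0334 by edgeR). Nd4 read 8556 ± 735 CPM in fed and 9748 ± 1235 in fasted controls (SD, n = 4 each), but 10035 ± 1564 in fed (n = 4) and 5167 ± 686 in fasted M-p110αKO (n = 3). All 14 tested tRNAs had an interaction below 0, with a median of −1.25, and the 13 mRNAs a median of −0.15. The adjusted p values lie close to the threshold. The count fell to 0 without mouse 1, 2, 5, 6, 12 or 14, to 1 without mouse 9, 10, 11 or 13, and to 3 without mouse 8. Calls over all genes also fell, from 60 to 2, 4, 4, 4, 4 and 7 without mouse 1, 2, 5, 6, 12 and 14. In those fits 10 to 14 members had an unadjusted edgeR p under 0.05, against 12 with all libraries. Over all 12432 genes 925 stood higher and 934 lower at that p with all libraries.

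**Figure D4:**
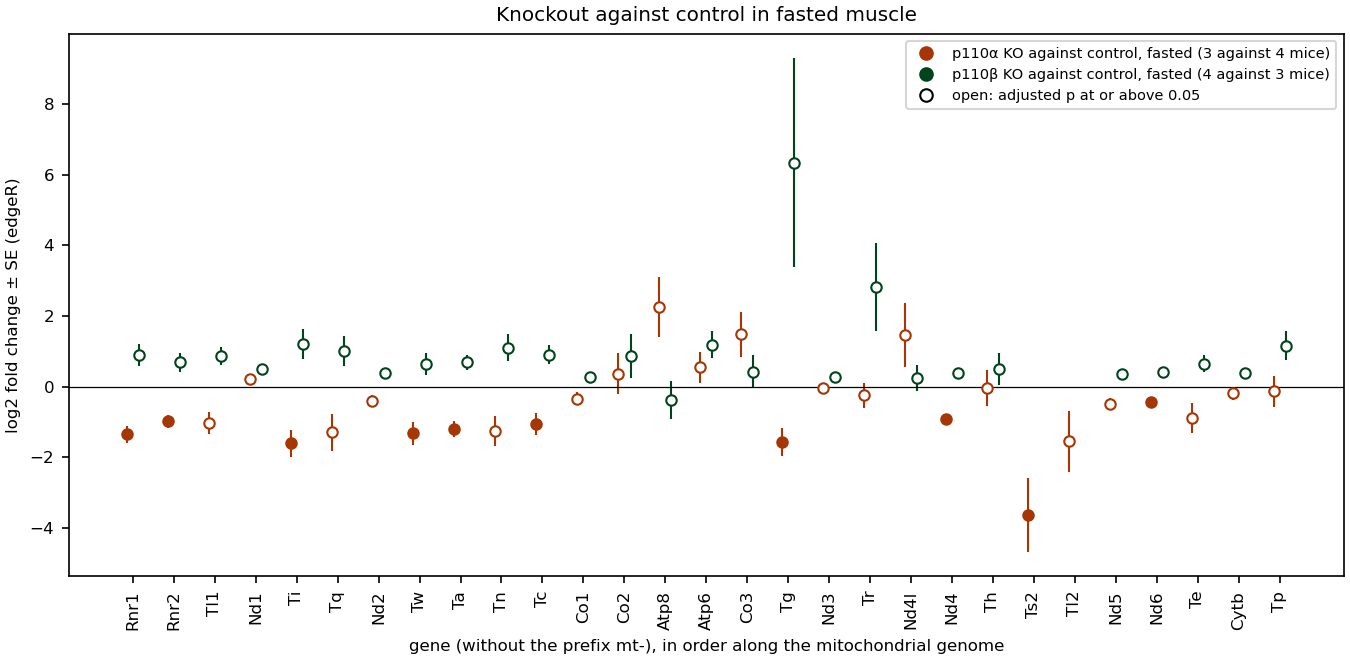
Log2 fold change of knockout against control in fasted muscle, with SE from edgeR, for the members tested, in genome order, in the p110α line (brown) and the p110β line (green). Filled points have an adjusted p under 0.05, and most members lie below 0 in the p110α line and above 0 in the p110β line.

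In fed muscle of the p110β line 0 of 27 members were called between M-p110βKO and controls, and 0% of all 12248 genes. Before adjustment 2 members were higher and 2 lower at p under 0.05, against 518 and 542 of all 12248 genes. DESeq2 called 0 members. mt-Rnr1 differed by −0.37 ± 0.31 (SE, adjusted p = 0.77 by edgeR) and Nd1 by −0.11 ± 0.12 (SE, adjusted p = 0.84 by edgeR). The values farthest from 0 were those of mt-Tg and mt-Tr, whose reads in this group lay mainly in mice 19 and 21 (mt-Tg 20, 1, 32 and 0, mt-Tr 18, 3, 28 and 1).

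In fasted muscle of the p110β line the members stood higher in M-p110βKO, but none passed the test. By edgeR 0 of 27 members were called, against 0.906% of all genes (0.294% higher, 0.612% lower). Before adjustment 20 members stood higher and 0 lower at p under 0.05, against 757 and 865 of all 12248 genes. DESeq2 called 2. The log2 fold change was above 0 for 26 of 27, with a median of 0.65 against −0.000534 for all genes. The 27 include mt-Tg and mt-Tr, whose reads went with the assignment of mt-Nd3 reads. In mice 26–29 mt-Tg had 0, 41, 0 and 0 reads and mt-Tr 5, 41, 0 and 3. mt-Rnr1 read 1419.6, 899 and 2083 CPM in fasted controls and 3607, 1959, 1837 and 3511 in fasted M-p110βKO, a log2 fold change of 0.89 ± 0.32 (SE, adjusted p = 0.228 by edgeR). The groups overlapped, because control mouse 25 lay above mice 27 and 28. mt-Ta read 155, 132 and 282 CPM in controls and 348, 269, 245 and 364 in knockouts, at 0.69 ± 0.22 (SE, adjusted p = 0.157 by edgeR), with mouse 25 again among the knockouts. Nd1 was separated, at 20467, 21358 and 24644 CPM in controls and 30044, 31101, 34276 and 29933 in knockouts, with 0.50 ± 0.12 (SE, adjusted p = 0.0607 by edgeR).

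The count turned on mouse 25. Without it 11 members were called, all higher. They were mt-Tl1, Nd1, Nd2, mt-Tw, mt-Ta, mt-Tc, Atp6, Nd5, Nd6, mt-Te and Cytb, and the 2 remaining controls were mice 23 and 24. Calls over all genes rose as well, from 111 of 12248 to 392 of 12576 (161 higher, 231 lower). Without mouse 27, 2 members and 251 of all 12168 genes were called, and without any other single mouse 0 members. Upper-quartile scaling and limma-voom each called 1. Mouse 25 also stood with the knockouts for fat. Its summed adipocyte markers read 172 CPM, against 387 and 424 in mice 23 and 24 and 127–192 in fasted M-p110βKO, and 3 of 4 tested adipocyte markers and 2 of 8 fibroblast markers were called lower. Summed snoRNAs read 337, 57.1 and 163 CPM in mice 23–25. The part of fat and of snoRNA content in the result was not tested.

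Fasting of p110β-line controls called 0 members higher and 3 lower of 27, against 27% of all genes called (14.5% higher, 12.4% lower). The 3 were Nd1, Nd2 and Nd3 of complex I. Nd1 read 32383, 36998 and 33005 CPM in fed controls and 20467, 21358 and 24644 in fasted ones, without overlap, a log2 fold change of −0.61 ± 0.13 (SE, adjusted p = 0.00175 by edgeR). Nd2 changed by −0.40 ± 0.13 (SE, adjusted p = 0.0281 by edgeR) and lost its call without any 1 of mice 16, 17, 18, 23 and 24. Nd3 changed as described below. Neither rRNA was called, at −0.49 (adjusted p = 0.3) for mt-Rnr1 and −0.10 (adjusted p = 0.818) for mt-Rnr2 by edgeR.

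Fasted M-p110βKO had more reads of mitochondrial tRNAs than fed M-p110βKO. Summed snoRNAs, which an mRNA kit should not select, were also higher, at 277–579 CPM fasted against 101–224 fed. Their part in the tRNA result was not tested. Of 27 members 10 were higher and 1 lower, against 38% of all genes called (19% in each direction), and the 10 comprised 8 of 12 tested tRNAs, mt-Rnr1 and Co3. mt-Ta read 116, 138, 141 and 135 CPM in fed M-p110βKO and 348, 269, 245 and 364 in fasted M-p110βKO, without overlap, a log2 fold change of 1.21 ± 0.20 (SE, adjusted p = 0.000128 by edgeR). mt-Tc rose by 1.39 ± 0.25 (SE, adjusted p = 0.000263 by edgeR) and mt-Tn by 1.73 ± 0.37 (SE, adjusted p = 0.00133 by edgeR). The other tRNAs called were mt-Tp (proline) at 1.48, mt-Tw at 1.25, mt-Ti at 1.16, mt-Tl1 at 1.06 and mt-Te at 0.59. mt-Rnr1 changed by 0.78 ± 0.29 (SE, adjusted p = 0.0432 by edgeR) and mt-Rnr2 by 0.54 ± 0.24 (SE, adjusted p = 0.0806 by edgeR). The call of mt-Rnr1 held only without mouse 27 or 28, that of mt-Ti was lost without mouse 19, 21, 22, 26 or 29, and that of mt-Te without mouse 19, 20, 21, 26 or 29.

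The Co3 call rests on mouse 27, with 4591 reads against 901, 1206 and 1089 in the other fasted M-p110βKO, and without mouse 27 its log2 fold change was 0.58 and not called. It was also lost without mouse 19 or 21. Apart from Nd3, described below, the other mRNAs were not called, with values from −0.90 (adjusted p = 0.215) for Co2 to 0.39 (adjusted p = 0.61) for Atp8 by edgeR. Co1 gave 0.28 (adjusted p = 0.0641) and Cytb 0.23 (adjusted p = 0.135). Without mice 19, 21 and 27, the 3 libraries with reads under mt-Nd3, 6 members were called in place of 11, namely 5 higher and 1 lower. Members tested fell from 27 to 25, and calls over all genes from 4651 of 12248 to 3019 of 12462. Markers moved here too, with all 8 fibroblast, 4 of 4 tested macrophage and 5 of 10 fast-fibre markers called lower, and their part in the result was not tested. The interaction of knockout and fasting in the p110β line called 0 of 27 members against 0.106% of all genes (0.0408% higher, 0.0653% lower). Before adjustment 12 members were higher and 0 lower at p under 0.05, against 752 and 812 of all 12248 genes. DESeq2 called 1 member and 40 of all 12248 genes. Without mouse 25, 8 members and 143 of all 12576 genes were called.

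**Figure D5:**
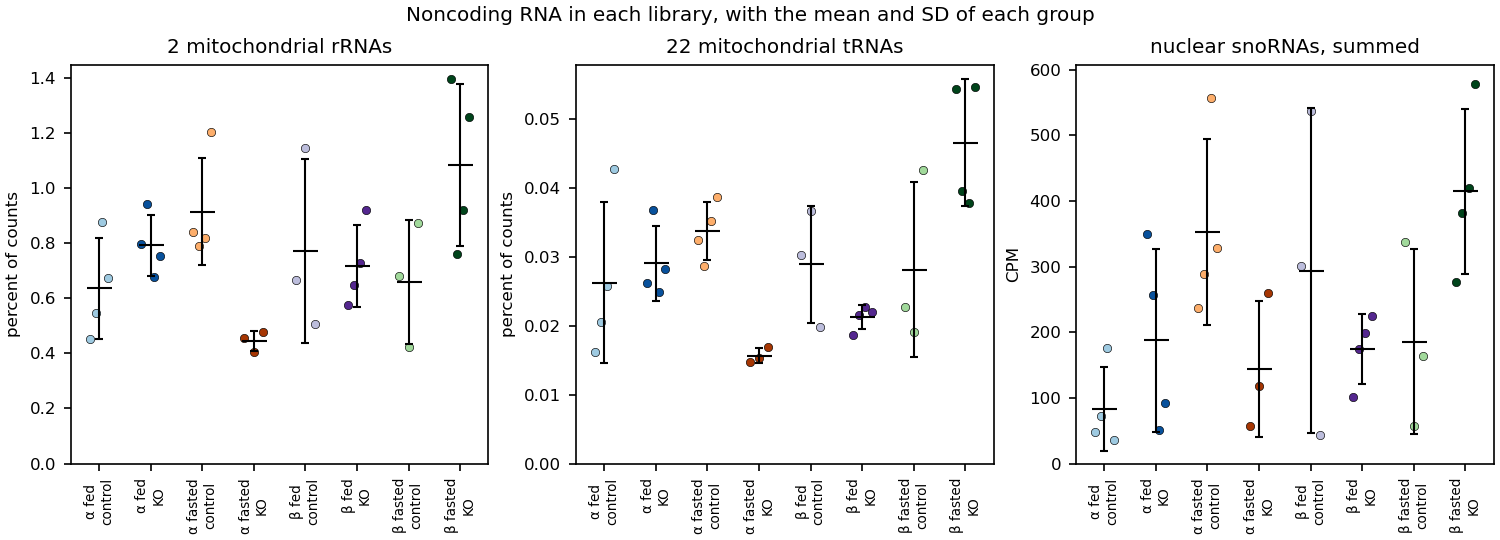
Percent of counts in the 2 mitochondrial rRNAs and in the 22 mitochondrial tRNAs, and summed CPM of nuclear snoRNAs, in each library (points) by group with the mean and SD (bars). The mean tRNA share is lowest in fasted M-p110αKO and highest in fasted M-p110βKO, and summed snoRNAs are also higher in fasted M-p110βKO (277–579 CPM) than in fed M-p110βKO (101–224 CPM).

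Nd3 was lower in fasted muscle in all 4 fasting comparisons, each made with its own libraries. In p110α-line controls it read 3009.9, 2602, 3324 and 2933 CPM fed and 2074, 2029, 2211 and 2170.1 fasted, a log2 fold change of −0.49 ± 0.11 (SE, adjusted p = 0.00348 by edgeR). In M-p110αKO it read 2966, 2973, 3382 and 4193 fed and 1969, 2015 and 2133 fasted, and changed by −0.73. In p110β-line controls it read 2727, 3149.5 and 3233 fed and 1954, 2015 and 2263 fasted, at −0.54 ± 0.13 (SE, adjusted p = 0.00418 by edgeR). In M-p110βKO it read 3698, 3098, 3387 and 3802 fed and 2464, 2808, 2715 and 2136 fasted, at −0.47 ± 0.11 (SE, adjusted p = 0.00265 by edgeR). The fed and fasted libraries did not overlap in any of the 4, and every call held when any 1 library was left out. With Gm28438 kept apart, Nd3 was not called in either comparison of the p110β line. Nd3 shares 98.0% of its 50-base windows with a nuclear transcript, so its level stays uncertain even with the reads of Gm28438 added. The knockout was not called for Nd3 in any state, with log2 fold changes from −0.05 to 0.28.

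Between fed controls of the lines 2 members were higher in the p110β line and 4 lower of 29, against 20.3% of all genes called (9.33% higher, 11% lower). Nd1 read 18604, 20046, 21055 and 20633 CPM in the p110α line and 32383, 36998 and 33005 in the p110β line, a log2 fold change of 0.76 ± 0.13 (SE, adjusted p = 0.000273 by edgeR). The groups did not overlap, while Nd2, the next complex I gene, differed by 0.04, Co1 by −0.04 and Cytb by −0.09. mt-Tn was also higher, at 1.20 ± 0.43 (SE, adjusted p = 0.0482 by edgeR), with 3.56, 6.46, 4.87 and 12.7 CPM in the p110α line and 13.2, 30.4 and 7.20 in the p110β line, and lost its call under 4 alternatives and without mouse 1, 2, 3, 16 or 17. The 4 lower were tRNAs with few reads. mt-Tg had 37, 35, 52 and 48 reads in the p110α line and 0 in all 3 of the p110β line, mt-Tr 18, 30, 22 and 36 against 2, 3 and 2, mt-Ts2 5, 7, 8 and 44 against 1, 2 and 3, and mt-Tl2 10, 4, 10 and 29 against 0, 4 and 0. Without mouse 16 only mt-Tg and Nd1 were still called, and mt-Ts2 and mt-Tl2 were also lost without mouse 4. For mt-Tg and mt-Tr the gap went with the assignment of mt-Nd3 reads and not with the line, since the p110β-line mice 19, 21 and 27 had 20, 32 and 41 mt-Tg reads and 18, 28 and 41 mt-Tr reads. The difference between lines in the response of controls to fasting was not called for any member by edgeR (0 of 29, against 1.56% of all genes, 0.933% higher and 0.627% lower). Before adjustment 1 member was higher and 4 lower at p under 0.05, against 1114 and 1100 of all 12759 genes. DESeq2 called 0 members.

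The difference between knockout and control in fasted muscle did differ between the lines. In a comparison added after the values were seen, 13 of 29 members had a higher value in the p110β line than in the p110α line and 0 a lower one, against 4.89% of all genes called (2.7% higher, 2.19% lower). They were both rRNAs, 7 of 14 tRNAs and the complex I mRNAs Nd2, Nd4, Nd5 and Nd6. mt-Rnr1 differed by 2.25 ± 0.45 (SE, adjusted p = 0.00524 by edgeR), mt-Ta by 1.91 ± 0.34 (SE, adjusted p = 0.00249 by edgeR) and Nd4 by 1.30 ± 0.22 (SE, adjusted p = 0.00181 by edgeR). The other called mRNAs, Nd5, Nd6 and Nd2, differed by 0.86, 0.83 and 0.80. Co1, Cytb and Nd1, at 0.61, 0.58 and 0.29, were not called. The count was 5 without mouse 24, 8 without mouse 13 or 23, and 9 to 16 without any other mouse. Calls over all genes fell from 624 to 178, 392 and 221 without mouse 24, 13 and 23.

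The ratio of mt-Rnr2 to mt-Rnr1, which come from 1 precursor, compares members within a library. It averaged 2.09 ± 0.242 in fasted p110α-line controls (SD, n = 4), against 2.67 ± 0.294 in fed controls (n = 4) and 2.68 ± 0.361 in fasted M-p110αKO (n = 3). Both differences had an exact two-sided permutation p = 0.0286, the smallest these group sizes allow, and adjusted over 16 comparisons p = 0.152. Fed M-p110βKO had 3.48 ± 0.599 (n = 4) and fed p110β-line controls 2.80 ± 0.454 (n = 3), with the same p values. The ratio of Nd6, from the light strand, to Cytb, from the heavy strand, lay between 0.188 ± 0.0269 in fasted M-p110αKO (n = 3) and 0.230 ± 0.0231 in fed M-p110αKO (n = 4). None of its 8 comparisons had an exact permutation p below 0.114.

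Nuclear genes listed for mitochondrial gene expression were read from 5 lists with 105 genes, of which 101 were tested. The lists were written from general knowledge. The listed role was not checked in mouse muscle for Mss51 or any other gene. Tfam, which packages the mitochondrial genome, was not called in any of the 13 comparisons, with 0.28 ± 0.12 (SE, adjusted p = 0.171 by edgeR) in fasted M-p110αKO and 0.03 ± 0.14 (SE, adjusted p = 0.95 by edgeR) in fasted M-p110βKO. Neither were the polymerase Polrmt and the helicase Twnk, at 0.14 and 0.06 in fasted M-p110αKO. In that comparison 8 of the 101 genes were higher and 2 lower, against 3.02% and 3.51% of all genes, with a median log2 fold change of 0.06. The higher genes included Gtpbp3, a tRNA-modifying enzyme, at 0.82 ± 0.14 (SE, adjusted p = 0.00352 by edgeR), the pseudouridine synthase Trub2 at 0.66 ± 0.11 (SE, adjusted p = 0.00365 by edgeR), and Fastk and Tbrg4, RNA-binding proteins of one family, at 0.45 and 0.44. In fasted M-p110βKO 0 were higher and 1, Mss51, lower, at −2.27 ± 0.52 (SE, adjusted p = 0.0419 by edgeR). Mss51 was also lower in M-p110αKO, at −2.30 ± 0.41 (SE, adjusted p = 0.012 by edgeR) fed and −1.62 ± 0.42 (SE, adjusted p = 0.0292 by edgeR) fasted.

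Fasting called genes of these lists in both directions, with 6 higher and 11 lower of the 101 in p110α-line controls, against 15.4% and 14.7% of all genes. The counts were 7 and 5 in M-p110αKO (11.6% and 9.91% of all genes), 11 and 12 in p110β-line controls (14.5% and 12.4%) and 13 and 9 in M-p110βKO (19% each). The share of list genes called was below that of all genes in each of these 4 comparisons. Lrpprc, which binds mitochondrial mRNAs, rose by 0.45 ± 0.12 (SE, adjusted p = 0.00734 by edgeR) in fasted p110β-line controls and by 0.53 ± 0.10 (SE, adjusted p = 0.000415 by edgeR) in fasted M-p110βKO, and was not called in p110α-line controls, at 0.29 ± 0.12 (SE, adjusted p = 0.0657 by edgeR). Its partner Slirp fell in p110β-line controls, at −0.60 ± 0.13 (SE, adjusted p = 0.00274 by edgeR). Trnt1, which adds the CCA end to tRNAs, rose by 0.91 ± 0.13 (SE, adjusted p = 3.34e-05 by edgeR) in fasted M-p110βKO.

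The nuclear genes for subunits of the same respiratory complexes moved with fasting in 1 direction in controls. Of 76 tested, 0 were higher and 34 lower in p110α-line controls, where 14.7% of all genes were lower, and 0 and 28 in M-p110αKO, where 9.91% were. The counts were 0 and 22 in p110β-line controls (12.4% of all genes lower) and 2 and 22 in M-p110βKO (19%). The median log2 fold changes were −0.39, −0.41, −0.33 and −0.19. Ndufs7 of complex I and Atp5d of ATP synthase, for example, changed by −0.77 ± 0.15 (SE, adjusted p = 0.00112 by edgeR) and −0.72 ± 0.12 (SE, adjusted p = 0.000185 by edgeR) in p110α-line controls. In fasted M-p110αKO, 7 of the 76 were higher than in fasted controls and 1 lower, against 3.02% and 3.51% of all genes. The higher ones included Ndufs8 of complex I at 0.64 ± 0.12 (SE, adjusted p = 0.00567 by edgeR) and Cox6a2, a muscle subunit of complex IV, at 0.92 ± 0.17 (SE, adjusted p = 0.00594 by edgeR), and the lower one, named after its value was seen, was Uqcr10 of complex III at −0.57 ± 0.17 (SE, adjusted p = 0.0499 by edgeR). In fasted M-p110βKO 0 of the 76 were called, with a median of 0.05.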

How the data were processed

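RNA-Seq libraries of TA muscle were made by the authors with an mRNA library kit. The submitters' processing notes name STAR, GRCm38 and featureCounts of Subread, with versions not given in the sources used here. What the authors deposited are whole-number counts for 48023 genes in 29 libraries. Of the gene IDs, 47310 matched a symbol in GENCODE M21. The 713 others hold 0.0292% of counts. The members and gene lists were chosen with earlier results of these data known.

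Each line was fitted with 1 coefficient per group in edgeR 4.0.16 (R 4.3.3), with filterByExpr (minimum count 10, minimum total 15), TMM scaling and the quasi-likelihood F test. The lines were compared in a joint fit of all 29 libraries. Genes tested were 12432, 12248 and 12759. The Benjamini-Hochberg adjustment ran over every gene in a fit, and the threshold was 0.05. The SE is the absolute log2 fold change divided by the square root of F. Levels are CPM with joint TMM factors. Named were all mRNAs and rRNAs, the tRNAs past the threshold with the 5 highest and 3 lowest, and from the nuclear lists up to 6 called genes per comparison with Tfam, Polrmt, Twnk, Lrpprc and Slirp. Ratios were tested by exact permutation of libraries. The 39 within-group library pairs had a chi-square per degree of freedom of 3.92–31.0, so no library was a copy of another in its group. Pairs from different groups were not compared. Labels give 1 mouse per library, and p values measure the spread between mice. Depth of 5351935–11653239 reads limits tRNAs, 10 of which averaged under 10 reads. Intervals for a count of 0 cover counting error only.

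Nuclear copies were found with BLASTN against GENCODE M21 transcripts, and shared windows of 50 bases by exact match. Alternatives planned were scaling by upper quartiles, by DESeq2 size factors or without mitochondrial genes, filters of 1 read in all or 1 CPM in 3 libraries, DESeq2 1.42.0 and limma-voom (limma 3.58.1) as tools, Gm28438 kept apart, the compared groups alone and each library left out. Sums with the 7 nuclear copies, fits without mice 19, 21 and 27, and the comparison of knockout effects between lines were added after the data were seen. The fits were tested on simulated data.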

Additional observations from a re-analysis of the deposited data

Results flagged for a closer look

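Outlying libraries were looked for in 105 group and measure combinations of 4 mice, of which chance flags about 1 in 20, and 16 were found. Mouse 4, a fed p110α-line control, stood above its group for Co2 (402 CPM, next 105), Atp6 (145, next 43.2), Co3 (200.4, next 45.8), Nd4l (36.5, next 3.67) and Nd6 (3125, next 2498). Fed M-p110αKO mouse 6 stood out for Co2 (283 CPM, next 84.4) and Co3 (243, next 45.6), and mouse 8 for Nd4l (12.2, next 3.15). Fasted control mouse 10 had the highest Co2 (125 CPM, next 61.0) and mouse 12 the highest rRNA share (1.20% of counts, next 0.842%).

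In the p110β line fed M-p110βKO mouse 19 was lowest for Co3 (60.9 CPM, next 115) and Cytb (9147, next 10674), and mouse 22 had the highest ratio of mt-Rnr2 to mt-Rnr1 (4.37, next 3.20). Fasted M-p110βKO mouse 27 was highest for Co3 (564 CPM, next 172), and mouse 29 lowest for Atp8 (0.631, next 1.45) and Nd5 (11697, next 14366). Of the 16, 11 are in Co2, Atp6, Atp8, Co3 or Nd4l, which have few reads.

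The effect of the knockout differed between fed and fasted mice of the p110α line, by the edgeR interaction, for mt-Rnr1 (−1.64), mt-Rnr2 (−1.26), mt-Tw (−2.13), mt-Ta (−1.41) and Nd4 (−1.14). Between the lines, in the comparison added after the data were seen, the fasted knockout effect was higher in the p110β line for mt-Rnr1 (2.25), mt-Rnr2 (1.68), mt-Tl1 (1.91), mt-Ti (2.83), Nd2 (0.80), mt-Tw (1.98), mt-Ta (1.91), mt-Tn (2.37), mt-Tc (1.99), Nd4 (1.30), mt-Ts2 (4.94, on few reads), Nd5 (0.86) and Nd6 (0.83), on the log2 scale by edgeR.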

How the results depend on the processing

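The median of all genes moved by under 0.1 on the log2 scale under every scaling. With no filter beyond 1 read more members were called. In the p110α line 4 were called for the knockout fed (0 in the report), 20 fasted (10), 11 for fasting in controls (3), 23 in M-p110αKO (13) and 14 for the interaction (5). In the p110β line the counts were 5 for the knockout fed (0), 17 fasted (0), 6 for fasting in controls (3) and 10 for the interaction (0), and between lines 11 for fed controls (6), 5 for fasting (0) and 21 for the fasted knockout (13). Over all genes the p110α line had 437 of 25978 called for the knockout fed (76 of 12432 in the report) and 1235 fasted (811). Fasting had 3737 in controls (3739) and 2827 in M-p110αKO (2673), and the interaction 456 (60). The p110β line had 225 of 25330 fed (0 of 12248), 555 fasted (111), 3270 for fasting in controls (3304) and 377 for the interaction (13). Between lines the numbers were 2491 of 27895 (2588 of 12759), 716 (199) and 831 (624). The cause was not tested. For the fasted p110β knockout upper-quartile factors gave 1, DESeq2 2 and limma-voom 1, and DESeq2 gave 1 for the p110β interaction. Fasting in M-p110βKO gave 6 without mice 19, 21 and 27, with 3019 of 12462 called over all genes (4651 of 12248 in the report). The fed control comparison of lines gave 3 with only those 2 groups, with 2072 of 11806 called over all genes. Fewer samples entered both. Every other alternative for these counts stayed within 1.5 times. The share of counts was 13.5% when the 20 most abundant nuclear genes were left out of the total, by construction.

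With each library left out in turn, the counts for the p110α line were 0–0 for the knockout fed, 4–8 fasted, 2–7 for fasting in controls, 8–12 in M-p110αKO and 0–5 for the interaction. For the p110β line they were 0–0, 0–11, 2–7, 7–11 and 0–8 in the same order. Between lines they were 2–7 for fed controls, 0–0 for fasting and 5–16 for the fasted knockout. Calls over all genes moved as well, from 811 to 218–660 for the fasted p110α knockout and from 60 to 2–74 for its interaction. For the fasted p110β knockout they moved from 111 to 25–392. The fasted p110α knockout lost most without mouse 13 or 14 (4 called), and had 5 without mouse 9 or 11 and 6 without mouse 12. Fasting in p110α-line controls had 7 without mouse 4 (6 higher, 1 lower), 5 without mouse 3, and 2 without mouse 1, 9, 10, 11 or 12. Fasting in M-p110αKO had 8 without mouse 13. In p110β-line controls it had 7, all lower, without mouse 25 and 2 without mouse 16, 17, 23 or 24. In M-p110βKO it had 7 without mouse 19 or 21. The fed control comparison of lines had 2 without mouse 16. Of the members called in the fasted p110α knockout, mt-Rnr1, mt-Rnr2, mt-Ta and Nd4 kept the call under all 10 alternatives and each library left out.

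The direction turned in 2 places. mt-Te in fasting p110α-line controls ranged from −0.60 to 0.50 when 1 library was left out, with 0.50 (an edgeR adjusted p of 0.0417) without mouse 4, and mt-Nd3 between fed controls of the lines was −5.87 with Gm28438 apart, by construction. No paired analysis was possible because the groups share no replicate number.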
